A study of Mus musculus with 6 samples.

Results

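Heat shock chaperones of the cytosol and of the mitochondrial matrix were described in 4T1, a line of mouse mammary tumour cells. Pools of these cells were either knockout (KO) or wild type (WT) for Myo1e, which encodes myosin 1e, a class I myosin that works on actin at membranes. The genes were taken by symbol from a given list of 10, namely Hspa8, Hsp90aa1, Hsp90ab1, Hsph1, Hspa4, Hspd1, Hspe1, Dnaja1, Dnajb1 and Hsf1. All 10 were among the 11452 genes of the deposited table, and 10 of 10 passed the minimum level for testing, as did 11269 genes in all. RNA came from 3 KO libraries and 3 WT libraries, which the design text calls biological replicates. No treatment or time is named in the labels, which also do not say by what method Myo1e was disrupted or whether a pool is 1 clone or many. Columns of the table carry the numbers 1, 2 and 4 in each genotype, so KO 4 is the KO column with the number 4. The labels count pools 1 to 3 and leave unsaid what the number 4 stands for.

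Heat shock proteins of the Hsp70 and Hsp90 families bind unfolded or unfinished proteins and use ATP to help them fold. J proteins (Hsp40) bring substrates to Hsp70 and start its ATP hydrolysis, and Hsp110 proteins recharge Hsp70 with ATP. Hsp90 completes the folding of kinases, steroid receptors and other signalling proteins, many of which tumour cells depend on. In mitochondria, Hsp60 and its lid Hsp10 form a chamber in which imported proteins fold. Under heat or other proteotoxic stress the transcription factor HSF1 binds heat shock elements, inverted repeats of GAA, and raises transcription of many of these genes.

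Promoter sequences are shown for genes of the set with letter matches to heat shock elements. Genes with and without a match were lower in KO 4 and WT 4, as Dnajb1 and Hspa4 had none in their windows. The RefSeq promoter table (GRCm38.p6, 250 bases before to 50 bases after an annotated start) matched 6 of the 10 genes, Hspd1, Hspe1, Hsph1, Dnaja1, Dnajb1 and Hspa4, with 11 start sites. Both strands were searched for the 2-unit element GAANNTTC, which reads the same on both strands, and for 3-unit elements, in which GAA, TTC and GAA, or TTC, GAA and TTC, follow each other with any 2 bases between neighbours. A 3-unit element contains the 2-unit one. The other order of 2 units, TTC and then GAA with 2 bases between, was not searched for on its own. A window without a match can therefore still hold it. Capitals mark all bases inside any match.
Hspe1 promoter, chr1:55087898-55088197, plus strand: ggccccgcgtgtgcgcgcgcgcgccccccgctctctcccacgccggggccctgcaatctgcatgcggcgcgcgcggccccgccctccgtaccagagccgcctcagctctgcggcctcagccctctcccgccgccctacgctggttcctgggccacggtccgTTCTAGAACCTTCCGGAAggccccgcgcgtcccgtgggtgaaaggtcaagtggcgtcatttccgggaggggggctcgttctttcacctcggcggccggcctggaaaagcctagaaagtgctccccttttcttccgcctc
Hsph1 promoter, chr5:149636266-149636565, minus strand: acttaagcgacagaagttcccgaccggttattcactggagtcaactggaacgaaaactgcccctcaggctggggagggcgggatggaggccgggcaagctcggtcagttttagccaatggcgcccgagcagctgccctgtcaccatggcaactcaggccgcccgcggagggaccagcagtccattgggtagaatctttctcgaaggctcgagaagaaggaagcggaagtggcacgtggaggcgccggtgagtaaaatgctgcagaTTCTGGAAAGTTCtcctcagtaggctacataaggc
Dnaja1 promoter, chr4:40722218-40722517, plus strand: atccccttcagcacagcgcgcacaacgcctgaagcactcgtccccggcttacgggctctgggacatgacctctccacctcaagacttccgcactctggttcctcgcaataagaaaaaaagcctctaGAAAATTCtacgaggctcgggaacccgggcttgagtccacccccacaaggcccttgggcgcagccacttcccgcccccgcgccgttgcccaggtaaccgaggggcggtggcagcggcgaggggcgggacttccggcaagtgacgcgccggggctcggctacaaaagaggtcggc
In the Hspe1 promoter, 18 bases from -89 to -72 relative to the start held 2 overlapping 3-unit elements. Hspe1 and Hspd1 lie head to head, and 285 bases of this window were shared with the Hspd1 window at chr1:55087883-55088182 on the minus strand, where the same element lay at -144 to -127. The Hsph1 window held a 3-unit element at 16 to 28, inside the transcribed part. Upstream of the start, its lower-case bases also held TTC and then GAA with 2 bases between, the order not searched for on its own. The Dnaja1 window held a 2-unit element at -124 to -117. A second, shifted Hsph1 window held the same element at 37 to 49. No match was found in 2 further Dnaja1 windows, in 1 further Hspd1 window, or in the windows of Dnajb1 and Hspa4. Of all 32851 promoter windows in the table, 7.86% held the 2-unit element and 0.603% a 3-unit element. Any window that carried a symbol of the set but lay off its gene's chromosome was left out above and kept in these shares. A match describes the letters only, and binding of HSF1 was not measured.

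The recovered reads numbered 19560010 in KO 4 and 17980487 in WT 4, and 17772003 to 19988206 in the other 4 libraries. The 10 genes held between 824 and 117088 reads per library each. All 12 of a list of 12 epithelial markers were measured. Their summed level was 3975 to 4709.7 CPM (reads scaled to an effective library size) in KO and 4266 to 5419 CPM in WT. Of the markers of other cells, 2 of 9 for fibroblasts (Pdgfra and Postn), 1 of 10 for leukocytes (Cd68) and 0 of 6 for endothelium were measured, and the others were not analysed here. Postn and Pdgfra together were at 30.0 to 71.1 CPM in KO and 51.6 to 76.9 CPM in WT. The epithelial sum also moved with the library number. It was 3975 to 4266 CPM in KO 4 and WT 4, against 4685 to 5419 CPM in the others. Of the 12 markers, 4 were called lower and 6 higher, against 33.8% and 31.8% of all genes. The part of the epithelial sum in the chaperone levels was not tested. In bulk RNA, fewer cells of a type and less RNA per cell cannot be told apart.

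The targeted gene was still expressed in KO. Myo1e was at 6.87, 6.81 and 6.81 log2 CPM in KO 1, KO 2 and KO 4, against 7.09, 7.02 and 6.91 in the WT libraries of the same numbers. KO was below WT in 3 of 3 pairs, by -0.18 on average (SE 0.09), which did not pass the threshold (limma, adjusted p = 0.9999). With the column number as a replicate block the SE was 0.05 and the 95% interval -0.29 to -0.06. That limma fit gave an unadjusted p of 0.0067 and an adjusted p of 0.32, also not past the threshold. Reads summed over a gene cannot tell an edited transcript from an intact one, so these levels do not check the knockout.

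Transcript levels per length were highest for Hsp90ab1 and, on average, Hspa8. Divided by the length of the principal transcript in kilobases, Hsp90ab1 averaged 2130 CPM per kilobase over the 6 libraries and Hspa8 averaged 972.8. Hspd1 followed with 566 and Hsp90aa1 with 519, and Hspd1 was above Hsp90aa1 in each of the 6 libraries. Hspe1 averaged 226, Hspa4 averaged 179 and Hsph1 averaged 56.6 CPM per kilobase. Hsf1, Dnaja1 and Dnajb1 were lowest, with 29.1, 21.5 and 18.0. In KO 4, 3 of these orders turned: Hspa8 was at 403 with Hspd1 at 415, Hspe1 was at 152 with Hspa4 at 159, and Dnaja1 was at 14.8 with Dnajb1 at 16.0. In WT 4 the order of Hspe1 and Hspa4 turned too, at 165 and 166, while Hspa8 at 470.1 stayed above Hspd1 at 434 and Dnaja1 at 15.8 above Dnajb1 at 14.7. These lengths come from 1 transcript a gene, the longest of those annotated as principal, and are approximate. Dnaja1 had the longest, at 5622 bases, against 2996 for Dnajb1 and 2084 for Hsf1. Before division Dnaja1 was at 83.3 CPM in KO 4, against 47.9 for Dnajb1 and 53.7 for Hsf1. Its place beside these genes, and its turn with Dnajb1, therefore depend on the lengths.

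**Figure D1:**
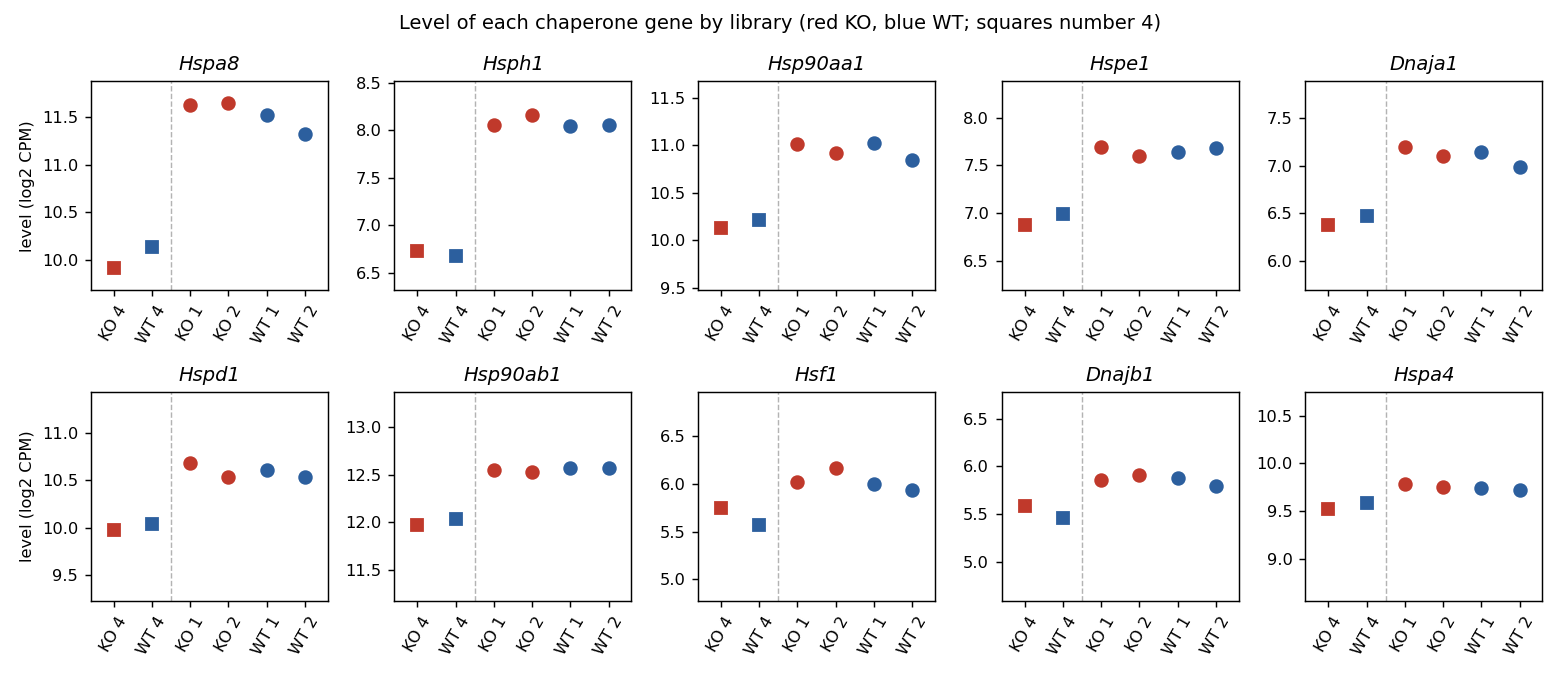
Level in log2 CPM of each of the 10 genes by library, KO in red and WT in blue, squares for the libraries numbered 4 and circles for those numbered 1 and 2. Each panel spans 2.2 log2 units, and in all 10 panels both squares lie below all 4 circles, from a gap of over 1 log2 unit for Hspa8 and Hsph1 to a small one for Hspa4.

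In KO 4 and WT 4 the 10 genes were lower than in the libraries numbered 1 and 2 of both genotypes. All 10 passed the threshold in limma's test with a term for genotype (adjusted p of 1.4e-07 to 0.011). This fit counts KO 4 and WT 4 as separate replicates, so its p-values do not measure the spread between column numbers. For 10 of 10 the 2 libraries numbered 4 lay below the other 4 without overlap. Across all genes tested, 33.8% were called lower in this comparison, 31.8% were called higher, 65.6% were called in either direction, and 37.0% lay lower without overlap. The median difference of the 10 genes was -0.63 on the log2 scale, against 0.0031 over all genes, and it was -0.70 within KO and -0.57 within WT. Their summed level was 8234 CPM in KO 4 and 8734 CPM in WT 4, against 13546 to 14480.1 CPM in the other libraries. As a share of recovered reads they held 0.877% in KO 4 and 0.909% in WT 4, against 1.32% to 1.41%. The split by number was known from earlier results of these data, and the labels do not say what separates these libraries.

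Hspa8 encodes Hsc70, the constitutive Hsp70 of the cytosol, which also strips clathrin from coated vesicles (GRCm38 chromosome 9, 40800984 to 40810087, plus strand). Its level was 9.91 in KO 4 and 10.14 in WT 4, against 11.63 in KO 1, 11.64 in KO 2, 11.52 in WT 1 and 11.33 log2 CPM in WT 2. The libraries numbered 4 were far below the rest, and the difference of -1.51 (SE 0.10), or 0.352 times the level, was the largest of the set (limma, adjusted p = 3.0e-06). Among all genes tested, 1.42% had a difference at least as low. Exons of 3 small nucleolar RNA genes lie within those annotated for Hspa8, so reads there can be counted for either.

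Hsph1 encodes Hsp110, an exchange factor for Hsp70 that also holds unfolded proteins in solution (chromosome 5, 149614287 to 149636376, minus strand). Its level was 6.73 log2 CPM in KO 4 and 6.68 in WT 4, against 8.06, 8.16, 8.04 and 8.06 in KO 1, KO 2, WT 1 and WT 2. The difference was -1.37 (SE 0.05, limma, adjusted p = 1.4e-07), and it was the most even of the set between genotypes, with -1.37 in KO and -1.37 in WT. Hspa4, a second Hsp110-type exchange factor (chromosome 11, 53259814 to 53300457, minus strand), was at 9.52 in KO 4 and 9.59 in WT 4, against 9.72 to 9.78 in the others. Its difference of -0.20 (SE 0.06) was the smallest of the set and passed narrowly (limma, adjusted p = 0.011). For Hspa4, 35.0% of all genes had a difference at least as low. Its call ended with quantile normalization (difference -0.03, limma, adjusted p = 0.63). It also ended within WT alone and without KO 4, each with a difference of -0.15 and 1 library numbered 4.

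The Hsp90 genes of the cytosol fell by unequal amounts. Hsp90aa1, the stress-inducible Hsp90 alpha (chromosome 12, 110690605 to 110702728, minus strand), was at 10.13 in KO 4 and 10.22 in WT 4, against 11.01, 10.92, 11.02 and 10.85 log2 CPM in KO 1, KO 2, WT 1 and WT 2. Its difference was -0.78 (SE 0.07, limma, adjusted p = 2.0e-05), or 0.583 times the level. Hsp90ab1, the constitutive Hsp90 beta and the most abundant of the set (chromosome 17, 45567775 to 45573271, minus strand), was at 11.97 in KO 4 and 12.03 in WT 4, against 12.53 to 12.57 in the others. Its difference was -0.55 (SE 0.08, limma, adjusted p = 2.7e-04), with -0.57 within KO alone and -0.54 within WT alone, where its call ended. These fits within 1 genotype set 1 library against 2, so the lone library is assumed to vary like the others. They estimated their variance apart, so their calls are not compared between genotypes. The log2 ratio of Hsp90aa1 to Hsp90ab1 was -1.84 in KO 4 and -1.82 in WT 4, against -1.73 to -1.53 in the others, lower in both genotypes. With quantile normalization the Hsp90aa1 difference was -0.47, close to the -0.48 of Hsp90ab1, so this inequality depends on the scaling.

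Both genes of the mitochondrial pair fell. Hspd1, which encodes Hsp60 (chromosome 1, 55077835 to 55088243, minus strand), was at 9.98 in KO 4 and 10.04 in WT 4, against 10.68, 10.54, 10.60 and 10.54 log2 CPM in KO 1, KO 2, WT 1 and WT 2. Hspe1, which encodes Hsp10 (chromosome 1, 55088132 to 55091307, plus strand), was at 6.88 in KO 4 and 6.99 in WT 4, against 7.70, 7.60, 7.65 and 7.68. The differences were -0.58 (SE 0.07) for Hspd1 and -0.72 (SE 0.05) for Hspe1, with adjusted p of 6.7e-05 and 5.3e-06 in limma's test. With quantile normalization the differences were -0.33 for Hspd1 and -0.62 for Hspe1, both past the threshold. The log2 ratio of Hspd1 to Hspe1 was 3.10 in KO 4 and 3.04 in WT 4, against 2.85 to 2.99 in the others, higher in both genotypes without overlap. The exons of these genes overlap on opposite strands by 112 bases around the shared promoter printed above, and without a stated strand setting reads there cannot be assigned with certainty.

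The J proteins and the regulator fell by less than Hspa8. Dnaja1, a farnesylated J protein that works with Hspa8 (chromosome 4, 40722150 to 40737149, plus strand), was at 6.38 in KO 4 and 6.47 in WT 4, against 7.20, 7.10, 7.14 and 6.99 log2 CPM in KO 1, KO 2, WT 1 and WT 2. The difference was -0.68 (SE 0.07, limma, adjusted p = 2.5e-05). Its exons overlap those of Smu1 on the opposite strand, and also a long noncoding RNA and a microRNA gene. Dnajb1, the main stress-inducible Hsp40 (chromosome 8, 83608193 to 83612653, plus strand), was at 5.58 in KO 4 and 5.46 in WT 4, against 5.80 to 5.90. Hsf1, the heat shock transcription factor (chromosome 15, 76477422 to 76501913, plus strand), was at 5.75 in KO 4 and 5.57 in WT 4, against 5.93 to 6.17. Their differences were -0.34 (SE 0.06) for Dnajb1 and -0.37 (SE 0.06) for Hsf1, with adjusted p of 0.0011 and 7.9e-04 in limma's test. These are levels of the Hsf1 transcript, and the activity of the protein was not measured.

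**Figure D2:**
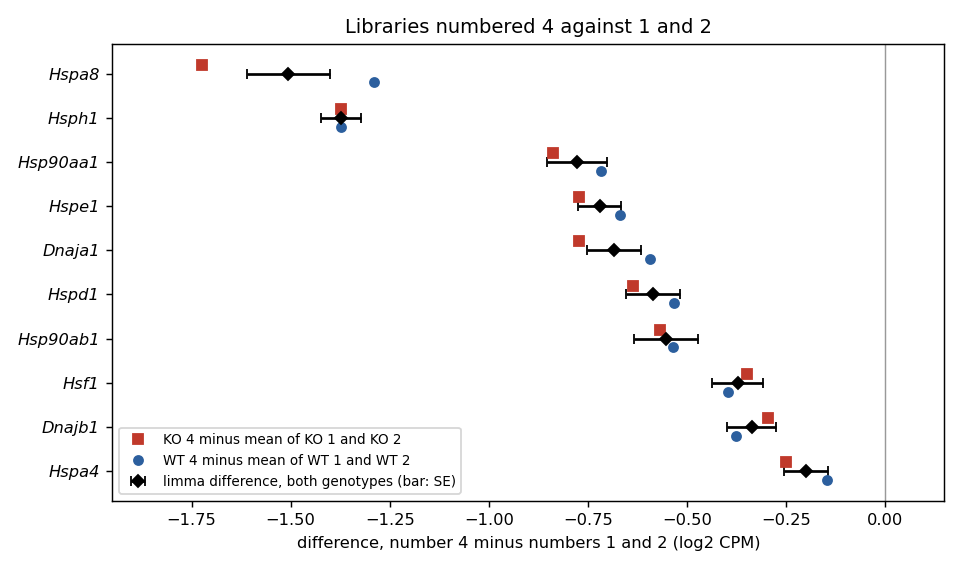
Difference in log2 CPM between KO 4 and WT 4 and the other 4 libraries for each gene, with limma's estimate and SE in black, KO alone as red squares and WT alone as blue circles. All estimates lie below 0, from -1.51 for Hspa8 to -0.20 for Hspa4, and the genotypes lie furthest apart for Hspa8, at -1.72 in KO and -1.29 in WT.

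The fall in KO 4 and WT 4 was tested for a difference between the genotypes. It was larger in KO for 7 of the 10 genes, a count not set against a share over all genes. The median interaction over all genes was -0.01. Hspa8 had the largest gap, with -1.72 in KO and -1.29 in WT, an interaction of -0.43 (SE 0.16). Its unadjusted p in limma was 0.026, the only one of the 10 under 0.05, and the adjusted p was 0.997. Across all genes the interaction passed for 0 (background 0%), with 440 at an unadjusted p under 0.05, and 0 of the 10 genes passed. The other interactions lay between -0.18 for Dnaja1 and 0.08 for Dnajb1, with SEs of 0.11 to 0.17 on the log2 scale over the set.

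The comparison of KO with WT, the contrast of the study, gave no call in this set. In limma's test without a block, 0 of the 10 genes and 0 of all genes passed (background 0%, 23 genes at an unadjusted p under 0.05, none of them in the set), and voom on recovered reads also called 0, with 24 at an unadjusted p under 0.05. With the column number as a replicate block, 0 of the 10 passed and 1 of all genes did (0.00887%), which was Txnip, named after its values were seen. The median difference of the 10 genes was 0.02, against -0.0071 over all genes, and 7 of 10 had the higher mean in KO. The share of all genes with a higher mean in KO was not computed. The medians within number were 0.03, 0.08 and -0.07 for numbers 1, 2 and 4. The spread within a genotype came mostly from number 4, as for Hspa8, with a mean of 11.06 ± 0.99 in KO and of 10.995 ± 0.75 in WT (SD, n = 3 each, log2 CPM).

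Within numbers, KO minus WT had 1 sign in 3 of 3 pairs for 3 of the genes. The share of all genes with such agreement was not computed, so this count is not read as a trait of the set. Hsf1 was higher in KO each time, by 0.02, 0.24 and 0.18 for numbers 1, 2 and 4, with a mean of 0.14 (SE 0.06 and adjusted p = 0.48 with the replicate block, unadjusted p = 0.042). Hsph1 was higher by 0.01, 0.10 and 0.06, and Hsp90ab1 was lower by -0.02, -0.05 and -0.07, with adjusted p of 0.73 and 0.87 in limma's test with the replicate block. The other 7 genes changed sign between numbers. Hspa8 showed this most, with 0.11 and 0.32 for numbers 1 and 2 and -0.22 for number 4. WT 2 was 0.20 below WT 1 for this gene, while KO 2 was 0.01 above KO 1.

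The interval of each difference shows what size these libraries allow. With the replicate block, the 95% intervals of KO minus WT ran from -0.14 to 0.28 for Hspa8, from -0.05 to 0.16 for Hsph1, from -0.14 to 0.13 for Hsp90aa1 and from -0.21 to 0.12 for Hsp90ab1. For Hspd1 the interval ran from -0.12 to 0.14 and for Hspe1 from -0.17 to 0.07. That of Hspa4 was -0.11 to 0.12, that of Dnaja1 was -0.10 to 0.15, that of Dnajb1 was -0.07 to 0.20 and that of Hsf1 was 0.0063 to 0.28 before adjustment over genes. A p above the threshold does not show that the genotypes were alike.

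**Figure D3:**
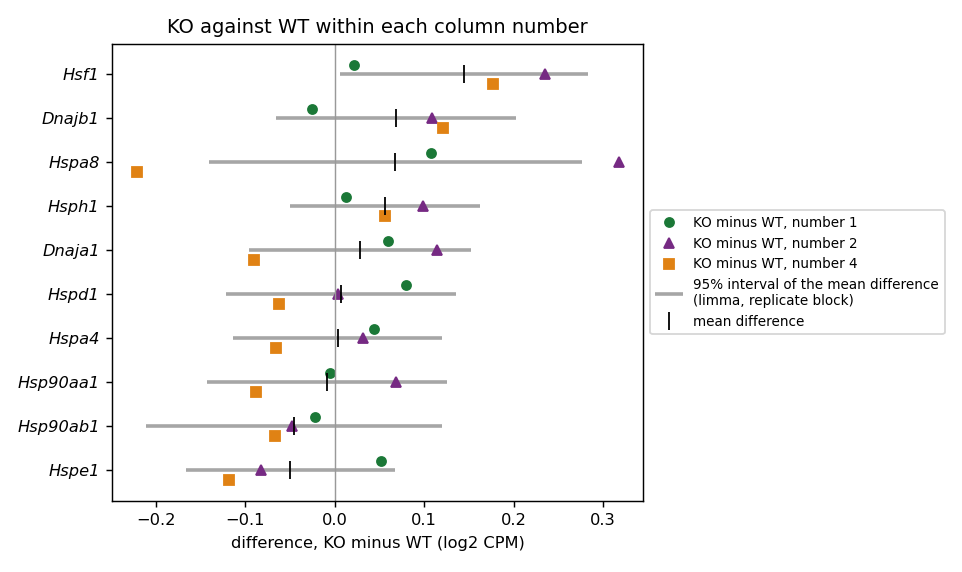
KO minus WT in log2 CPM for each gene within numbers 1 (green circles), 2 (purple triangles) and 4 (orange squares), with the mean as a black tick and its 95% interval from limma with the replicate block in grey. The points lie between -0.22 and 0.32, both from Hspa8, and the interval of Hsf1 is the only one above 0.

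Other genes of the same machinery were read from lists chosen with earlier results of these data known. Stress-inducible Hspa1b, of the Hsp70 family, was at 3.20 in KO 4 and 3.59 in WT 4, against 4.49 to 4.81 log2 CPM in the others (difference -1.28, SE 0.13, limma adjusted p = 3.1e-05). Its near-identical copy Hspa1a was not analysed here, and reads may be shared between the copies. Of 5 measured genes of that family outside the set, 3 were lower and 0 higher in the libraries numbered 4, with a median of -0.62. Over all genes, 33.8% were called lower and 31.8% higher. Hspa14, an Hsp70 of the ribosome, differed by -0.84 (SE 0.07), and Hspa4l, named after its values were seen, did not pass, with 0.16. Exchange factors besides Hsp110 had 4 of 6 lower and 1 higher, with a median of -0.59. Hspbp1 differed by -0.80 (SE 0.06), Bag3, which links Hsp70 to autophagy, by -0.58, and Bag5 by 1.06 (SE 0.07) in the other direction.

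Of 16 measured cochaperones of Hsp90, 13 were lower and 1 higher, with a median of -0.56. Ahsa1, which activates the Hsp90 ATPase, was at 6.43 in KO 4 and 6.53 in WT 4, against 7.49 to 7.57 in the others, a difference of -1.05 (SE 0.05). Stip1, also called Hop, which passes substrates from Hsp70 to Hsp90, differed by -0.95 (SE 0.05), and Nudc by -1.09 (SE 0.05). The adjusted p in limma's test was 5.1e-07 for Ahsa1, 7.3e-07 for Stip1 and 3.2e-07 for Nudc. J proteins of the cytosol were split, with 5 of 13 lower and 3 higher and a median of -0.20, close to the background of 33.8% lower and 31.8% higher over all genes. Dnajb4, a J protein related to Dnajb1, was higher by 1.05 (SE 0.08), while Dnajc9, which chaperones histones, was lower by -0.76 (SE 0.06).

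Several mitochondrial folding factors outside the Hsp60 pair moved in the opposite direction to it. Of 11 measured mitochondrial chaperones and proteases outside the set, 6 were higher, 2 lower and 3 did not pass, with a median of 0.22. The shares over all genes were 31.8% higher and 33.8% lower. The mitochondrial Hsp70 mortalin, Hspa9 (named after its values were seen), was at 10.32 in KO 4 and 10.38 in WT 4, against 9.89 to 10.002 log2 CPM in the others (difference 0.42, SE 0.06, limma adjusted p = 2.1e-04). Its J protein Dnaja3 differed by 1.04 (SE 0.06) and the matrix protease Lonp1 by 1.07 (SE 0.05), while its exchange factor Grpel1 differed by -0.63 (SE 0.07). The log2 ratio of Hspd1 to Hspa9 was -0.35 in KO 4 and -0.34 in WT 4, against 0.53 to 0.78 in the others. Hsf2, a second heat shock factor, differed by 0.23 (limma adjusted p = 0.028), opposite in sign to Hsf1.

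**Figure D4:**
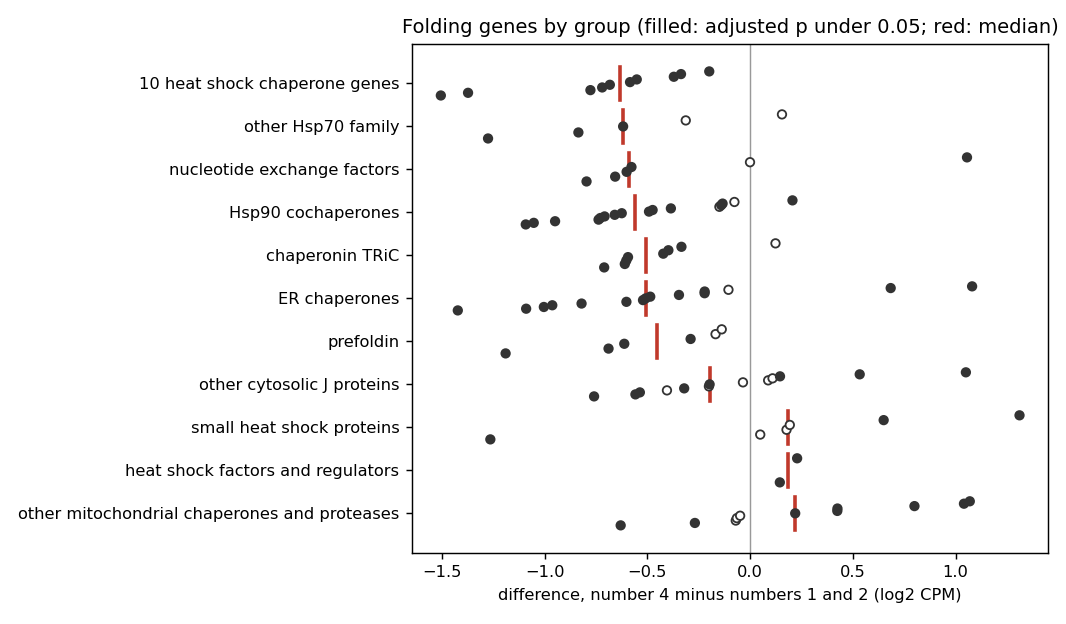
Difference in log2 CPM between KO 4 and WT 4 and the other 4 libraries for each measured gene of 11 groups of folding genes, filled where limma's adjusted p is under 0.05, with group medians in red. The set of 10 has the lowest median at -0.63, close to the -0.62 of the other Hsp70 family. The other mitochondrial chaperones and proteases have the highest at 0.22.

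In KO against WT, 0 genes of these lists passed in limma's test, with or without the replicate block. List medians of the difference lay at -0.06 for the other Hsp70 family, 0.01 for exchange factors, -0.05 for Hsp90 cochaperones, -0.02 for J proteins and -0.02 for the mitochondrial list. Of 13 listed mitochondrially encoded transcripts, 7 were measured. Their median was 0.19, with 7 of 7 higher in KO (0.07 to 0.27) and 0 of 7 past the threshold. Within numbers 1, 2 and 4 the medians were 0.22, 0.12 and 0.15. The share of all genes higher in KO was not computed, so this count is not read as a trait of these transcripts. These transcripts, which vary with RNA quality and with mitochondrial content, moved with the library number too. Of 7 measured, 6 were lower in the libraries numbered 4, against 33.8% of all genes, with a median of -0.65. Their summed level was 2971 to 3220 CPM in KO 4 and WT 4, against 3897 to 5077 CPM in the others. Their part in the lower chaperone levels was not tested.

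Over the 6 libraries the 10 genes varied together, with pairwise Pearson r of 0.836 to 0.997. Among the genes outside the set with levels most like the mean of the 10 were Ddx56, Lrp8 and Insig1, each with r over 0.999 across 6 libraries. Between KO 4 and WT 4 and the other libraries, Ddx56 differed by -0.66, Lrp8 by -1.89 and Insig1, which retains the sterol sensor in the endoplasmic reticulum, by -2.36. The points share the split by number, and 2102 genes had r over 0.95.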

How the data were processed

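The deposited table of 6 libraries gives log2 CPM, that is, log2 of depth-scaled reads plus a prior. The submitters' processing notes name edgeR, featureCounts (Subread 1.6.4), STAR 2.7.3a, Trimmomatic 0.39 and build GRCm38. Libraries came from a stranded mRNA kit, per the labels' protocols, but the counter's strand setting, annotation release and scaling were not stated in the sources used here. By number, columns 1 and 2 were assigned to pools 1 and 2, while columns 4 were assigned by genotype alone. The linear values were whole multiples of a step in 100% of cases within a tolerance of 0.01. This gave 17772003 to 19988206 reads per library with a prior of 1 read. The effective library size was 1.07 times the recovered reads in KO 4 and 1.04 in WT 4, against 0.971 to 0.981 in the others. Relative to the others, CPM in KO 4 and WT 4 are therefore lower than plain shares of reads. No pair of libraries agreed within sampling noise (chi-square per degree of freedom 4.89 or more).

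Genes needed a log2 CPM of 0 in at least 3 of 6 libraries. Differences were fitted over all 11269 such genes with limma 3.58.1 in R 4.3.3 (variance following the mean, two-sided, Benjamini-Hochberg threshold 0.05), as KO minus WT without covariate, as number 4 minus 1 and 2 with a genotype term, and as their interaction. The script was tested on simulated data. Alternatives changed the minimum level, pseudocount, scaling, variance model, unit (voom), libraries used and covariates. The p-values measure the spread between these libraries. Those for number 4 take KO 4 and WT 4 as independent. If the numbers pair the libraries, the spread between numbers is not measured.

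The column numbers were taken to pair the libraries from the data and not from a label. Deviations from the genotype mean correlated at 0.744, 0.784 and 0.921 across genes for numbers 1, 2 and 4, but unlike numbers 1 and 2 also correlated, at 0.687 (KO 1, WT 2) and 0.617 (KO 2, WT 1). Deviations within a genotype cancel out, so the split of number 4 alone raises the values for numbers 1 and 2. Number 2 minus number 1, which leaves number 4 out, correlated between KO and WT at only 0.256 across 11269 genes. Intervals and p-values with the replicate block take the pairing as given.

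The members and lists were chosen with earlier results of these data known. Named genes were the 10 members, up to 3 genes per list with the smallest p for number 4, and the 5 genes most correlated with the members' mean. Some genes that met the last part of this rule are not reported here. Other genes are marked where they appear. Coordinates, exon overlaps and principal transcripts come from GENCODE M21 (GRCm38), and promoters from RefSeq.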

Additional observations from a re-analysis of the deposited data

How the results depend on the processing

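For the libraries numbered 4 against 1 and 2, the direction of all 10 genes was kept under each alternative run, and 8 to 10 of them passed. The count over all genes was 4843 within WT alone and 6984 within KO alone, with 3 libraries each, against 7398, and the cause was not tested. It was 5589 to 7452 with 1 library left out. Hspa4, and within WT alone Hsp90ab1, were the genes whose call ended.

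For KO against WT, the replicate block gave 1 gene over all genes in place of 0, and it changed no call in the set. No member passed under any alternative. The Hsp90aa1 difference of -0.01 changed sign, to 0.032 with quantile normalization and 0.031 with libraries 1 and 2 only. With 1 library left out, which leaves the numbers unequal between genotypes, the differences ranged from -0.36 to 0.64 for Hspa8, -0.25 to 0.27 for Hsp90aa1, -0.22 to 0.14 for Hsp90ab1, -0.40 to 0.51 for Hsph1, -0.046 to 0.087 for Hspa4, -0.17 to 0.22 for Hspd1, -0.27 to 0.21 for Hspe1, -0.17 to 0.29 for Dnaja1 and -0.057 to 0.17 for Dnajb1, and from 0.01 to 0.26 for Hsf1, the only one that kept its sign. No gene passed in any of these fits. Only 1 library per genotype carries the number 4, and RNA levels cannot separate transcription from decay.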

Other observations

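Other folding genes also differed between KO 4 and WT 4 and the other 4 libraries. Of the 8 subunits of the chaperonin TRiC, which folds actin and tubulin, 7 were lower and 0 higher, with a median difference of -0.51. Cct5 had a level of 9.35 in KO 4 and 9.52 in WT 4, against 10.07 to 10.24 log2 CPM in the others, and Cct4, named after its values were seen, did not pass, with 0.12. Of the 6 subunits of prefoldin, which delivers substrates to TRiC, 4 were lower and 0 higher, and Pfdn6 differed by -1.19 (SE 0.07, limma adjusted p = 8.5e-07). Across all genes 33.8% were lower and 31.8% higher.

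Chaperones of the endoplasmic reticulum were 12 of 15 lower and 2 higher, with a median of -0.51. The shares over all genes were 33.8% lower and 31.8% higher. Calr, a calcium-binding lectin chaperone, differed by -1.42 (SE 0.07) and the J protein Dnajb11 by -1.004 (SE 0.06). Hspa5, the Hsp70 of that compartment, named after its values were seen, differed by 0.68 (SE 0.09), opposite in sign to Hspa8. Of 6 measured genes on a list of small heat shock genes, 1 was lower and 2 higher. Whether each of these encodes a small heat shock protein was not checked. Hspb11 was higher by 0.65 (SE 0.09) and Hspb2 by 1.31 (SE 0.33), while Hspb1 was lower by -1.26 (SE 0.34) on 10 to 42 reads per library. For KO against WT, 0 genes of these lists passed in limma's test.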
